A study of Mus musculus with 3 samples.

Results

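Long messenger RNAs of mouse embryonic stem cells were read here at their far positions. Beyond position 5000 of the transcript, 112840 cytosines had a coverage of 10 reads or more in each of 3 bisulfite libraries. They were chosen by position and coverage alone from the 1639820 cytosines with that coverage at any position, of which they make up 6.88%. They lie in 904 of the 9395 transcripts with such cytosines, and 896 of the 904 were matched to 887 named genes. The single group of 3 samples carries the genotype Tet1-/-,Tet2-/-,Tet3-/- on the J1 background, so that all 3 Tet genes are knocked out in every library and no cells with intact Tet genes are compared. The cells were cultured with LIF (ESGRO) and serum on a layer of mouse embryonic fibroblasts, and the fibroblasts were removed at harvest by letting them attach to dishes first. Poly(A)+ RNA was fragmented, converted with bisulfite and sequenced from both fragment ends. The labels do not say whether the samples are separate cultures or 1 clone, so p-values that use the spread between samples may measure technical spread only. The comparison region, here called the nearer region, was the stretch of the same transcripts after position 500 and up to position 5000. It held 237312 cytosines with the same minimum coverage in 839 of the 904 transcripts, and the other 65 transcripts had none there.

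Bisulfite deaminates plain cytosine, which is then sequenced as thymine, whereas 5-methylcytosine resists and is still sequenced as cytosine. The unconverted share is the percentage of reads at a cytosine that still show cytosine. It sums methylated, hydroxymethylated and incompletely converted molecules. In mRNA, 5-methylcytosine is laid down mainly by NSUN2 and NSUN6, can be bound by the export factor ALYREF, and can be oxidised by Tet enzymes. Transcripts that reach past position 5000 either encode very large proteins, such as dynein heavy chain, giant ubiquitin ligases and basement membrane proteoglycans, or end in long 3' untranslated regions. Genomic coordinates, exon numbers and untranslated regions of the cytosines are not used here, because the annotation at hand is of another build than the mm9 build of the tables. Positions are therefore counted along the transcript.

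The far positions were read about as deeply as the nearer ones. Median coverage of the members was 29, 26 and 26 reads in replicates 1, 2 and 3, against 31, 26 and 26 in the nearer region. At 26 reads a count of 0 still allows a share of up to 11.5% (3 counts of the total), and at the minimum of 10 reads up to 30%. The members took 3.56% to 3.68% of the summed coverage, which was 139884444 to 151362866 per library. Of the cytosines of these 904 transcripts listed in any library, 33.2% beyond position 5000 and 35.8% in the nearer region had a coverage of 10 in all 3. All 12 embryonic stem cell markers examined were listed, with 0.517% to 0.543% of the coverage. Of 12 fibroblast markers, chosen for the feeder layer, 8 were listed with 0.0563% to 0.0777%, while Pdgfrb, Postn, Lum and Dcn had no listed cytosine. Only Tfcp2l1 (526) and Fbn1 (86) of these 24 markers contributed members, and the part of feeder RNA in the results was not tested.

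Of the knocked-out genes, Tet2 and Tet3 had members and Tet1 had none. Tet1 had no listed cytosine beyond position 4774. Tet2 (NM_001040400.2) contributed 110 members, unconverted in 50 of 3301 read positions in replicate 1, 36 of 3304 in replicate 2 and 26 of 2963 in replicate 3. Tet3 (NM_183138.2) contributed 30 members, with 9 of 580, 7 of 579 and 5 of 524. None of the 140 cytosines had an unadjusted p below 0.05 in the combined exact binomial test described below, against 2.37% of all members, and the beta-binomial alternative called 0. Reads over Tet2 and Tet3 do not check the knockout, since the labels do not say which exons were removed.

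Beyond position 5000 nearly all reads of the cytosines were converted. The unconverted share of the members was 1.47% in replicate 1 (95% Wilson interval 1.461% to 1.481%, counting error only), 1.40% in replicate 2 and 1.36% in replicate 3. The mean was 1.41% ± 0.0565 (SD, n = 3). No unconverted read was seen at 59.3%, 63.6% and 63.8% of the members in the 3 libraries, and none in any library at 36390 members (32.2%). In the 839 transcripts read in both regions, the share beyond position 5000 was lower than in the nearer region in each library. The difference was -0.0289 percentage points in replicate 1, -0.0153 in replicate 2 and -0.0273 in replicate 3. Its mean was -0.0238 ± 0.00743 (SD, n = 3), from 1.41% against 1.43%, with p = 0.25 in the exact two-sided sign-flip permutation test over libraries, the smallest p that 3 libraries can give. The shift was smaller than the spread of the share between libraries. Against the part of the nearer region after position 2500 it was -0.0201 ± 0.00960 (SD, n = 3), again below 0 in all 3 libraries.

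The share changed most near the start of these transcripts and little after it. In the first 500 nt it stood at 1.60% ± 0.0821, and in the next 500 nt at 1.45% ± 0.0551 (SD, n = 3). From position 1000 to 7000 the means of the 1000-nt bins lay between 1.41% and 1.44%. The lowest bin was that from 7000 to 8000 with 1.38% ± 0.0567, and the 22 transcripts read beyond position 14000 stood at 1.45% ± 0.0930 (SD, n = 3). At the boundary itself, the 200 nt just inside had 1.42% ± 0.0484 and the 200 nt just outside 1.40% ± 0.0570. At the coverage limit, members whose lowest coverage was 10 had 1.44% ± 0.0629, and cytosines of the same stretch with a lowest coverage of 9, which are no members, had 1.42% ± 0.0368 (SD, n = 3).

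**Figure D1:**
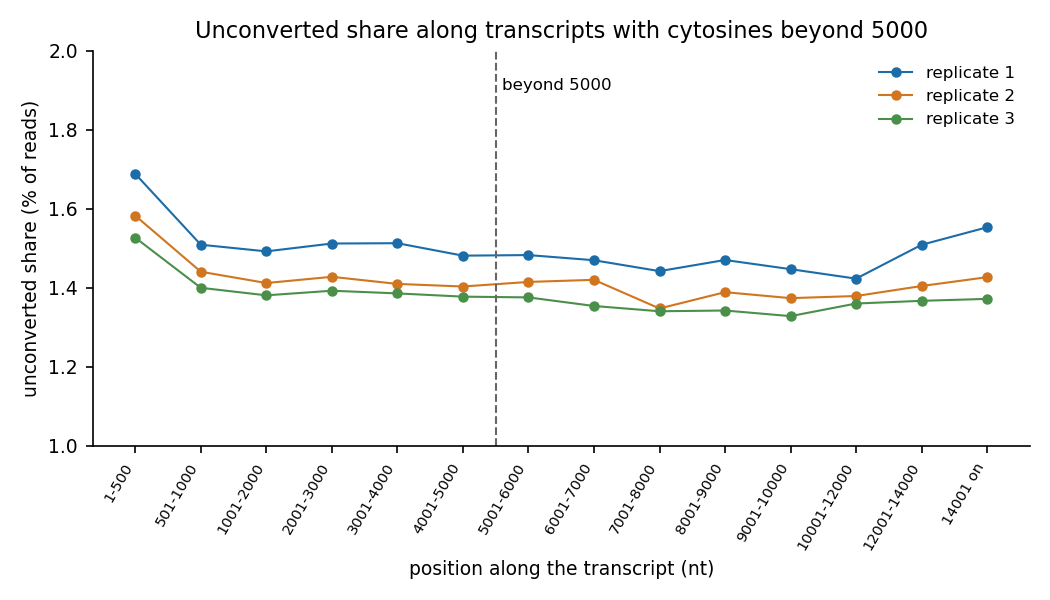
Unconverted share (% of reads, vertical axis from 1 to 2) by position along the 904 transcripts, 1 line per library, with the boundary at 5000 dashed. The first 500 nt stand highest at a mean of 1.60%, and the 3 libraries keep their order in every bin on both sides of the boundary.

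Which single far cytosines stayed unconverted above the background was asked next. A candidate had an adjusted p below 0.05 over all 1639820 cytosines (one-sided exact binomial test against the share of its library, combined by Fisher's method, Benjamini-Hochberg), a mean share of at least 10%, and in every library a share higher than that library's background. Of the members, 36 in 30 transcripts were candidates, or 31.9 per 100000 (exact 95% interval 22.3 to 44.2). In the nearer region there were 64, or 27.0 per 100000 (20.8 to 34.4), and over all cytosines tested 775, or 0.0473%, which is 47.3 per 100000 (44.0 to 50.7). The intervals of both regions overlap, and both rates lie below that of the whole table, of which they are part. These intervals count each cytosine as independent although neighbouring cytosines share reads, so their overlap is a description and no test. The shares of the 36 were low. Their median share was 13.4%, 3 reached 20% and none 50%, while 15 cytosines elsewhere in the table did.

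The difference in rate between the regions, 4.93 per 100000, had no fixed direction. With a coverage minimum of 20 reads it was -4.88 per 100000. Called in 1 library at a time, the rate beyond 5000 was below that of the nearer region in all 3: 23.0 against 24.9 per 100000 in replicate 1, 25.7 against 26.1 in replicate 2 and 24.8 against 32.0 in replicate 3. In these single-library calls 0.0335%, 0.0378% and 0.0341% of all cytosines were called. Without replicate 2 the difference of the combined calls was -8.43, and without replicate 1 or replicate 3 it was 8.74 or 3.12.

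Among the candidates, 3 had a mean coverage of at least 50 reads. Rptor, the scaffold that brings substrates to the kinase complex mTORC1, carried the one with the highest share, at position 6420 of NM_028898.2. It was unconverted in 21 of 104 reads of replicate 1, 20 of 104 of replicate 2 and 18 of 90 of replicate 3, or 19.8% ± 0.509 (SD, n = 3; adjusted p = 3.06e-41, combined exact binomial test). The 3 libraries almost coincide. The cytosine stood alone: at 3 nt before it 4 of 272 reads were unconverted, and at 7 nt after it 4 of 354. Coverage at 50 to 100 nt on either side was lower, with medians of 29 and 23.7 reads against 99.3 at the site.

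Hspg2, which encodes the basement membrane proteoglycan perlecan, had the second at position 5558 of NM_008305.3. It was unconverted in 12 of 121, 22 of 116 and 21 of 150 reads of replicates 1, 2 and 3, or 14.3% ± 4.53 (SD, n = 3; adjusted p = 1.51e-31, combined exact binomial test). Replicate 1 was the lowest of the 3, at 9.92%. At the listed cytosine 2 nt after the site, 2 of 389 reads were unconverted. Another, weaker candidate of the same transcript, position 11961, had 11 of 107 reads, or 10.3% ± 0.362 (SD, n = 3).

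Herc1, a giant ubiquitin ligase of the HECT and RLD domain family, had the most deeply read candidate beyond 5000, position 14469 of NM_145617.3. There 18 of 169, 17 of 217 and 24 of 197 reads were unconverted, or 10.2% ± 2.21 (SD, n = 3; adjusted p = 1.06e-25, combined exact binomial test). Its coverage ended sharply. It was 614 reads at 2 nt before the site, 583 at the site and 75 at 2 nt after it, summed over the libraries. The share was close to the level minimum of 10%, and without replicate 3 it fell below it, at 9.24%, so that the cytosine was no longer a candidate. Herc1 also had a thin candidate at position 9252, with 8 of 54 reads.

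These 3 deep cytosines, Rptor 6420, Hspg2 5558 and Herc1 14469, were also the only members called when the largest p-value of the 3 libraries replaced their combination. The other 33 candidates rested on few unconverted reads. Of the 36, 24 had at most 9 unconverted reads in the 3 libraries together, and 15 had a mean coverage below 20. Only 21 had an unadjusted p below 0.05 in each library by the one-sided exact binomial test, and 13 had it in 2 libraries. When the libraries were left out in turn, 7 of the 36 were called in all 3 reduced analyses and 5 in none.

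**Figure D2:**
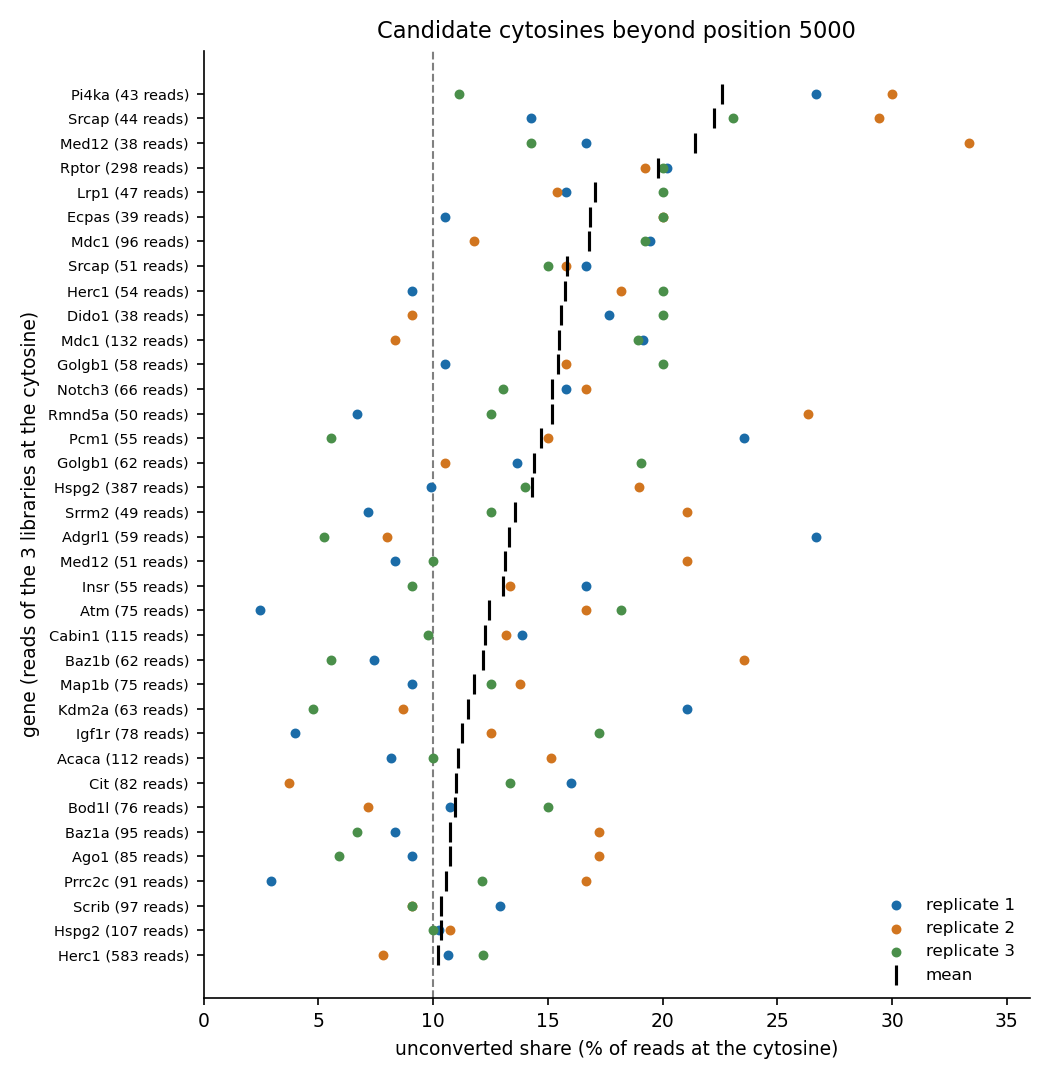
Unconverted share (%, horizontal axis) of the 36 candidate cytosines beyond position 5000, 1 row per cytosine with its gene and its reads in the 3 libraries, points for the libraries, a bar for the mean and a dashed line at the minimum of 10%. Rptor (298 reads) has 3 points close together near 19.8%, whereas those of Pi4ka (43 reads) run from 11.1% to 30% and those of Adgrl1 (59 reads) from 5.26% to 26.7%.

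Pairs of candidates lay in 6 genes. In Mdc1, which organises the repair of DNA breaks on chromatin, the pair lay 8 nt apart. Position 6255 of NM_001010833.2 was unconverted in 9 of 47, 4 of 48 and 7 of 37 reads (15.5% ± 6.18), and position 6263 in 7 of 36, 4 of 34 and 5 of 26 (16.8% ± 4.37; SD, n = 3 for both). Replicate 2 was the lowest at both positions. The listed cytosine 2 nt after position 6263 had 2 of 95 reads, and the next, at 4 nt, had 8 of 96. In Golgb1, which encodes the Golgi tether giantin, positions 10357 and 10361 of NM_030035.1 had 9 of 62 and 9 of 58 reads (14.4% ± 4.31 and 15.4% ± 4.75; SD, n = 3). The 2 cytosines between them had 5 of 58 and 4 of 58. Outside the pair, position 10349 had 7 of 77 reads and position 10365 had 4 of 47, while position 10368 had 0 of 41. These 4 cytosines of Mdc1 and Golgb1 were the members with another candidate within 10 nt (11.1% of the 36), and cytosines so close share reads, so each pair may come from the same molecules.

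The 3 candidates with a share of at least 20%, in Pi4ka, Srcap and Med12, were thinly read, as were the weaker ones of the Srcap and Med12 pairs. Pi4ka, a kinase that makes phosphatidylinositol 4-phosphate at the plasma membrane, had 4 of 15, 3 of 10 and 2 of 18 reads at position 5557 (22.6% ± 10.1). Srcap, the remodeller that deposits the histone variant H2A.Z, had 2 of 14, 5 of 17 and 3 of 13 at position 6246 (22.3% ± 7.60), and 8 of 51 in all at position 10396 (15.8% ± 0.834). Med12, of the kinase module of Mediator, had 2 of 12, 4 of 12 and 2 of 14 at position 5592 (21.4% ± 10.4), and 7 of 51 at position 5608 (13.1% ± 6.91; SD, n = 3 for each). Each library gave these cytosines 10 to 20 reads, and at 10 reads a count of 0 still allows a share of up to 30%. By that largest p-value none of these 5 cytosines was called. Beside Med12 5592, position 5593 had 5 of 40 reads unconverted, and position 5598 had 0 of 54. After Srcap 6246, positions 6247, 6248 and 6249 had 3, 2 and 3 of 44, and before it position 6239 had 0 of 37. Near Pi4ka 5557, position 5567 had 3 of 109. None of these neighbours was a candidate.

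Other candidates among the 20 highest came from membrane receptors and from chromatin, splicing and degradation factors. Lrp1, an endocytic receptor, had 17.1% ± 2.56 at position 9509, and Notch3, a receptor of the Notch pathway, 15.2% ± 1.89 at position 7667. Ecpas, a proteasome adaptor, had 16.8% ± 5.47 at position 5684, and Rmnd5a, a subunit of the CTLH ubiquitin ligase, 15.2% ± 10.1 at position 5447. Pcm1, the scaffold of centriolar satellites, had 14.7% ± 8.99 at position 5455. Dido1, a chromatin-associated factor, had 15.6% ± 5.74 at position 6137, Srrm2, a scaffold of nuclear speckles, 13.6% ± 7.02 at position 8207, and the adhesion receptor Adgrl1 13.3% ± 11.6 at position 6548 (SD, n = 3 for each). Their reads over the 3 libraries numbered from 38 at Dido1 to 66 at Notch3. Notch3 remained a candidate whichever library was left out, and Dido1 and Ecpas in no such analysis. With a beta-binomial background, 23 of the 36 remained, and Dido1, Ecpas, Srrm2, Adgrl1 and the weaker Med12 cytosine did not.

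Deeper reading brought up sites below the 10% level. By the combined exact binomial test, 260 members (230 per 100000) passed the adjusted threshold at any level, against 620 (261 per 100000) in the nearer region and 0.499% of all cytosines tested. Of the 260, 216 had a mean share under 10%, with a median of 5.18% at a median coverage of 128 reads. Chosen after their values were seen, the 10 highest of them with at least 100 reads on average included Son, a splicing factor of nuclear speckles, with 12 of 90, 7 of 116 and 8 of 94 reads at position 8228 (9.29% ± 3.71). Ubr4, a ubiquitin ligase of the N-degron pathway, had 15 of 333, 30 of 372 and 32 of 401 at position 14495 (6.85% ± 2.03), with replicate 1 the lowest. Ptprf, a receptor tyrosine phosphatase, had 47 of 744, 29 of 620 and 54 of 659 at position 5854 (6.40% ± 1.76; SD, n = 3 for each). Fasn, Myh9 and Huwe1 held 8 such sites each among 1113, 474 and 1725 members, against 216 among all 112840. Their members were read at 136, 143 and 62.2 reads on average, where the median over all members was 27. These counts were not adjusted for the number or depth of cytosines.

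Both measures were also compared by coverage. In the thinnest stratum, a mean coverage of 10 to below 20 reads, the rate of candidates was 40.9 per 100000 beyond position 5000 (15 cytosines) and 13.4 in the nearer region (10 cytosines). At 20 to below 50 reads it was 37.1 against 44.0, and at 50 to below 100 reads 5.77 (1 cytosine) against 19.1. The higher rate beyond 5000 was thus found in the thinnest and, with 2 candidates in each region, in the deepest stratum. The unconverted share of the members went from 1.45% ± 0.0743 in the thinnest to 1.38% ± 0.0562 in the deepest stratum, against 1.44% ± 0.0543 and 1.43% ± 0.0577 in the nearer region (SD, n = 3). Compared within the strata, the difference between the regions was -0.00829 ± 0.00140 percentage points (SD, n = 3), smaller than the pooled one and of the same sign. The difference in the rate of candidates was 5.39 per 100000 within the strata.

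**Figure D3:**
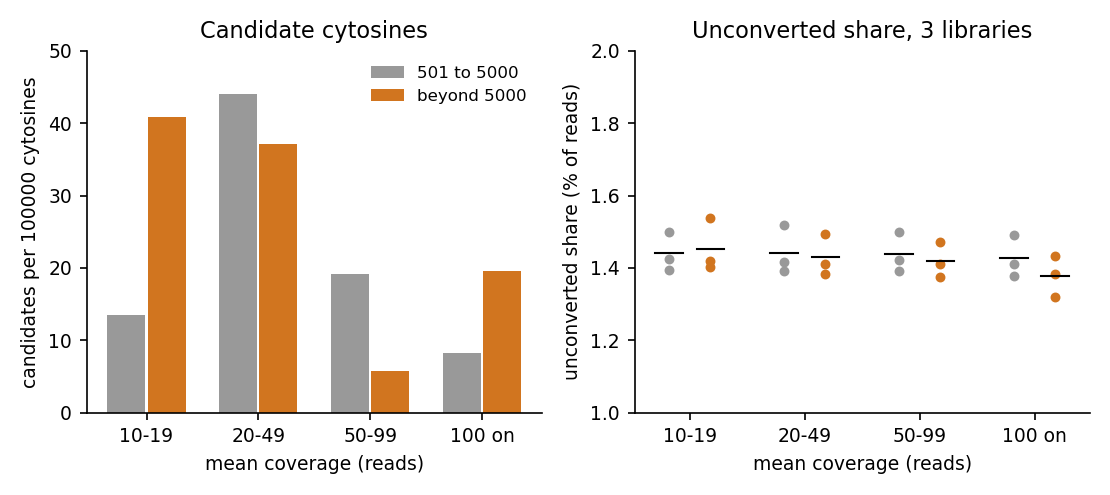
Candidates per 100000 cytosines (left) and unconverted share in % (right, vertical axis from 1 to 2, points for the 3 libraries, bars for the mean) by mean coverage, beyond 5000 and in the nearer region. The excess of candidates beyond 5000 in the thinnest stratum (40.9 against 13.4) rests on 15 and 10 cytosines.

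The transcripts with the most far cytosines encode giant proteins, and all stood near the mean of all members. Hspg2 contributed 2372 members, with a share of 1.54%, 1.41% and 1.34% in replicates 1, 2 and 3. Ubr4 contributed 2361 (1.42% ± 0.0703), Dync1h1, the motor chain of cytoplasmic dynein, 2017 (1.45% ± 0.0937), and Mdn1, an ATPase of ribosome assembly, 1956 (1.44% ± 0.0461). Lama5, a laminin chain, contributed 1728 (1.47% ± 0.0251), the ubiquitin ligase Huwe1 1725 (1.41% ± 0.0870), the cadherin Fat1 1548 (1.32% ± 0.0552), and Trrap, a scaffold of histone acetyltransferase complexes, 1308 (1.39% ± 0.0259; SD, n = 3 for each). Fat1 was the lowest of these 8. Fasn, the fatty acid synthase, had the deeper mean coverage of 136 ± 17.9 reads over 1113 members, and a share of 1.34% ± 0.0525 (SD, n = 3). None of these 9 transcripts was called in the transcript test below, in which Fat1 came nearest with an adjusted p of 0.0736 (edgeR, log2 ratio -0.12).

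The members lying furthest from the start came from Dst, Eppk1, Syne2, Kmt2d and Ahnak. Dst, a cytoskeletal linker of the plakin family, was read up to position 22821, with 80 members at 1.42% ± 0.184. Eppk1, an epiplakin of intermediate filaments, was read to position 20602 with 13 members (1.31% ± 0.0771). Syne2, which links the nucleus to the cytoskeleton, was read to position 20224 with 181 members (1.34% ± 0.180), Kmt2d, a histone H3 lysine methyltransferase, to position 19608 with 825 (1.56% ± 0.185), and the scaffold gene Ahnak to position 17882 with 512 (1.41% ± 0.100; SD, n = 3 for each). None held a candidate. In Kmt2d replicate 1 was the highest, at 1.77% against 1.42% and 1.50%.

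Whether a transcript's far part differed from its own nearer part was tested transcript by transcript. The unconverted reads of both regions were compared by edgeR's quasi-likelihood test with coverage as offset and the library as a term, in the 568 transcripts with at least 20 cytosines in each region and 30 unconverted reads in all. The share beyond position 5000 was higher in 12 transcripts (2.11%) and lower in 11 (1.94%), at an adjusted p below 0.05. These calls rest on the model. Without the library term (no replicate block) 2 were higher and 1 lower. With DESeq2 0 were higher (16 of 568 in either direction at an unadjusted p below 0.05) and 1 lower, and with limma 0 were called (83 at an unadjusted p below 0.05, against 101 with edgeR). Leaving out 1 library left 1 to 3 higher and 2 to 8 lower calls. The fit found a spread between libraries close to counting error, and a read counts there once for each cytosine it spans.

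Ncl and Setd5 had the smallest adjusted p. Ncl (NM_010880.3), which encodes the nucleolar protein nucleolin, had a share of 1.19%, 1.42% and 1.20% over its 269 members in replicates 1, 2 and 3, against 1.73%, 1.69% and 1.57% in the nearer region. The groups of values did not overlap, and the log2 ratio was -0.39 (adjusted p = 1.64e-06, edgeR). Its members were read at 45.9 reads on average against 348 in the nearer region. Compared with the positions after 2500 alone the log2 ratio was -0.08 (adjusted p = 0.712, edgeR), so that the call was lost. Setd5 (NM_028385.1), a protein with a SET domain, had 1.74%, 1.70% and 1.86% over 249 members against 1.38%, 1.24% and 1.31%. Again the values did not overlap, and the log2 ratio was 0.43 ± 0.0740 (SE; adjusted p = 2.95e-06, edgeR), and 0.46 against the positions after 2500 (adjusted p = 0.000669). With the boundary at 6000 it was 0.03, and the call was lost (adjusted p = 0.917, edgeR). Ncl and Setd5 were called whichever library was left out, and without the replicate block. With DESeq2 the adjusted p was 0.0398 for Ncl and 0.127 for Setd5, and with limma 0.307 for both.

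The other 4 named transcripts with a higher share were those of Urb2, Gsk3b, Dcp2 and Abcc5. Urb2, a factor of ribosome biogenesis, had 2.00% ± 0.301 over 55 members against 1.34% ± 0.0690. The kinase gene Gsk3b had 1.72% ± 0.194 against 1.27% ± 0.0617, Dcp2, the catalytic subunit of mRNA decapping, 1.64% ± 0.0811 against 1.26% ± 0.0914, and the transporter gene Abcc5 1.70% ± 0.151 against 1.31% ± 0.0662 (SD, n = 3 for each). In each of these 4 all far values lay above all near values. Their adjusted p in edgeR ran from 0.0204 in Abcc5 to 0.0266 in Urb2. None of these 4 was called without the replicate block, where their adjusted p ran from 0.0675 to 0.0864 (edgeR). The ratio of Urb2 turned to -0.02 with the boundary at 4000, and that of Gsk3b to -0.51 with the boundary at 6000.

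The lower share was found, besides Ncl, in Fubp1, Prr14l, Msi2, Sp1 and Numa1. Fubp1, a regulator of Myc transcription, had 0.901% ± 0.209 over 53 members against 1.40% ± 0.0666, and Prr14l 1.18% ± 0.116 over 151 against 1.77% ± 0.295. Msi2, an RNA-binding protein of stem cells, had 1.29% ± 0.113 over 48 members against 1.80% ± 0.221, the transcription factor gene Sp1 1.16% ± 0.252 against 1.53% ± 0.0868, and Numa1, which organises the poles of the mitotic spindle, 1.30% ± 0.104 over 287 members against 1.57% ± 0.0909 (SD, n = 3 for each). In these 5 all far values lay below all near values. Adjusted p ran from 0.00241 in Numa1 to 0.0400 in Prr14l (edgeR). Without the replicate block none of these 5 was called, with adjusted p from 0.0675 to 0.0864 (edgeR). Against the positions after 2500 only Numa1 stayed called (adjusted p = 0.0224, edgeR). There the adjusted p was 0.628 in Fubp1, 0.429 in Msi2, 0.0918 in Prr14l and 0.0992 in Sp1 (edgeR). At a coverage minimum of 20 reads Prr14l was not called (adjusted p = 0.425, edgeR), while Fubp1, Msi2, Sp1 and Numa1 were. Sp1 had 1 candidate in the nearer region, and with candidates left out, a comparison added after seeing the data, its adjusted p was 0.0663. Of these 11 named transcripts, only Ncl and Setd5 were called in each analysis that left out 1 library.

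**Figure D4:**
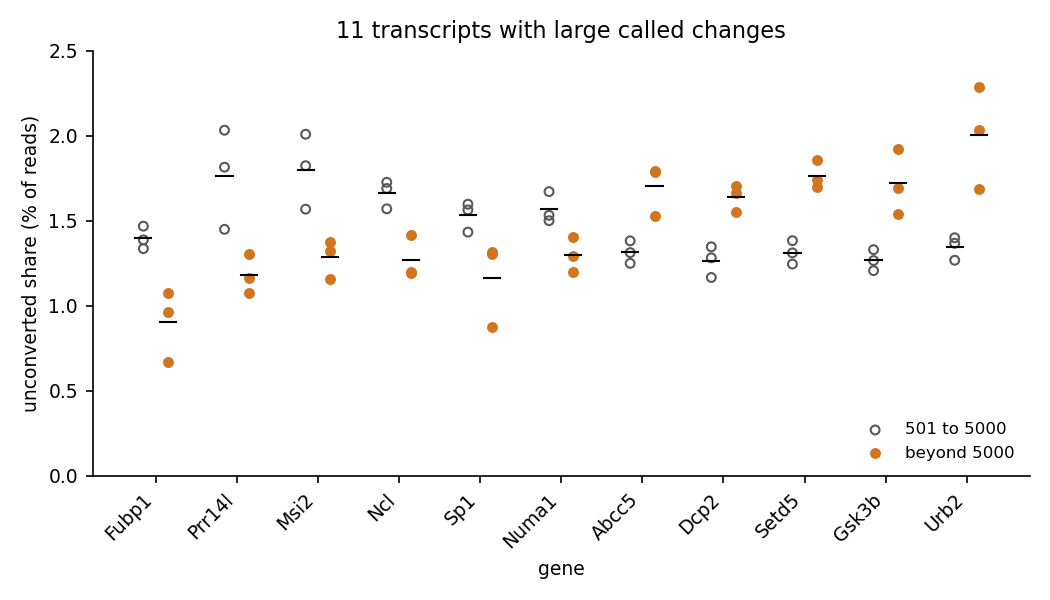
Unconverted share (%, from 0) of 11 transcripts with large called changes, open points for the nearer region and filled points for positions beyond 5000 in each library, with bars for the means. In all 11 the filled and open points do not overlap. They were picked for large called changes of the same direction in each library, so this separation adds no support.

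Rptor was among the 12 higher transcripts, and its call went with its 1 candidate. Over its 260 members the share was 1.64%, 1.77% and 1.48% against 1.39%, 1.44% and 1.28% in the nearer region, a log2 ratio of 0.25 ± 0.0723 (SE; adjusted p = 0.0217, edgeR). With candidate cytosines left out in the same way, the ratio was 0.13 and the call was lost (adjusted p = 0.364, edgeR). The stem cell factor Tfcp2l1, also called higher, had a share of 1.64%, 1.47% and 1.43% over 526 members against 1.31%, 1.36% and 1.31%, with a log2 ratio of 0.20 (adjusted p = 0.0233, edgeR). Without replicate 1 it was 0.12 (adjusted p = 0.466, edgeR), and the call was also lost without replicate 3 (0.127), without the replicate block (0.192) and against the positions after 2500 (0.204; adjusted p for each). The call of Rptor was lost whichever of the 3 libraries was left out.

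The ratios of the 568 transcripts lay on both sides of 0, somewhat more often below it. The share was lower beyond position 5000 in 309 of them (54.4%), a count that was not tested. The log2 ratio was above 0 in 260 and its median was -0.02. The share beyond position 5000 had a median of 1.39% over transcripts, with quartiles of 1.29% and 1.52%, and ran from 0.708% in Bri3bp (26 members, 16 unconverted reads) to 2.19% in Hnrnpul2 (32 members, 45 unconverted reads). In the nearer region the median was 1.41%. All 3 libraries gave a lower far share in 119 transcripts and a higher one in 99. Mean coverage was higher in the far part in 268 of the 568 transcripts, and its ratio, far over near, had a median of 0.976 with quartiles of 0.744 and 1.30.

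**Figure D5:**
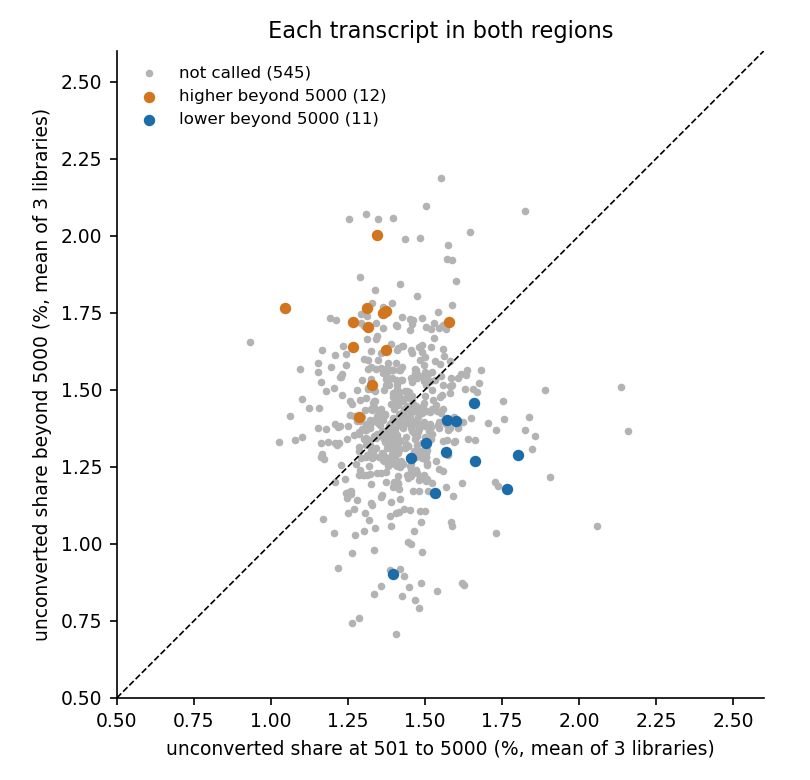
Mean unconverted share of each of the 568 transcripts beyond position 5000 (vertical axis, %) against the nearer region (horizontal axis, %), with the line of equal shares dashed and the 12 higher and 11 lower transcripts coloured. Over all 568 transcripts, called ones included, the median was 1.39% beyond 5000 and 1.41% in the nearer region.

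Groups of genes known for long mRNAs were described next, from lists chosen by function. Of the cytoskeletal and motor genes, 13 of 20 had members (6041 cytosines), with a share of 1.48% ± 0.0593. They held 0 candidates (207 cytosines, or 3.43% against 2.37% of all members, at an unadjusted p below 0.05 in the combined exact binomial test, 0 candidates with a beta-binomial background), where the rate of all members was 31.9 per 100000. In the transcript test Myh9, a non-muscle myosin heavy chain, was higher (1.72% beyond 5000, log2 ratio 0.12, adjusted p = 0.00290) and its paralogue Myh10 lower (log2 ratio -0.19, adjusted p = 0.00566; edgeR). The sign of Myh9 turned with the boundary at 6000 (-0.01) and that of Myh10 with the boundary at 4000 (0.06). Of the 3 analyses without 1 library, Myh9 was called only without replicate 2 and Myh10 only without replicate 1. The 6 others of the 8 tested were not called, and the median log2 ratio of the list was -0.05 against -0.02 in all transcripts tested. The 3 with the most members, Dync1h1, Tln1 and Utrn, stood at 1.45% ± 0.0937, 1.44% ± 0.0522 and 1.37% ± 0.0439 (SD, n = 3 for each).

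The extracellular matrix and receptor genes had the most members, 11457 in 29 of 38 genes, at 1.42% ± 0.0549. Their 6 candidates lay in Hspg2, Lrp1, Notch3, Insr and Igf1r, or 52.4 per 100000 against 31.9 in all members. The rates of all lists rest on 6 candidates or fewer, too few to set a list apart. Insr, the insulin receptor, had 13.0% ± 3.80 at position 8265 and Igf1r, the receptor of insulin-like growth factor 1, 11.2% ± 6.71 at position 9999 (SD, n = 3 for each; both named after their values were seen). None of its 24 tested transcripts was called by edgeR (7 at an unadjusted p below 0.05, 0 called by limma and DESeq2).

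The ubiquitin system had 8862 members in 15 of 22 genes at 1.40% ± 0.0693, with the 2 candidates of Herc1 (22.6 per 100000). After Ubr4 and Huwe1 it drew most members from Birc6, a giant inhibitor of apoptosis with ligase activity (831 members, 1.39% ± 0.0732). Chromatin regulators had 7460 members in 24 of 36 genes at 1.46% ± 0.0574, with 3 candidates (40.2 per 100000), the pair in Srcap and 1 in Kdm2a, a histone demethylase (11.5% ± 8.50 at position 6528, named after its values were seen). After Kmt2d, the most members came from the methyltransferase gene Nsd1 (628, 1.39% ± 0.0928) and the remodeller gene Bptf (620, 1.40% ± 0.0932; SD, n = 3 for each). None of 12 ubiquitin and 22 chromatin transcripts was called by edgeR (2 in each list at an unadjusted p below 0.05), nor by limma or DESeq2.

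RNA processing and translation genes had 4491 members in 15 of 28 genes at 1.41% ± 0.0644, with 3 candidates (66.8 per 100000), the pair in Med12 and 1 in Srrm2. Srrm2, Gcn1, which acts at stalled ribosomes, and Prpf8, the core protein of the spliceosome, contributed most, at 1.32% ± 0.0564, 1.54% ± 0.0797 and 1.40% ± 0.0519. Polr2a, the largest subunit of RNA polymerase II, was the 1 of 12 transcripts called, with 1.95%, 1.71% and 1.60% over 125 members against 1.46%, 1.33% and 1.33% (log2 ratio 0.35, adjusted p = 0.0100, edgeR), a call that was lost whichever of the 3 libraries was left out. Large kinases and DNA repair genes had 3981 members in 12 of 20 genes at 1.44% ± 0.0815, with 3 candidates (75.4 per 100000), the pair in Mdc1 and 1 in Atm, the kinase of the response to DNA breaks (12.4% ± 8.68 at position 9281, named after its values were seen). In Atm replicate 1 had 1 of 41 reads, and replicates 2 and 3 had 2 of 12 and 4 of 22. The list's median log2 ratio was 0.17, with 8 of 11 transcripts above 0, and edgeR called 0 (3 at an unadjusted p below 0.05, 0 by limma and DESeq2). Its largest contributors besides Trrap were Smg1, a kinase of nonsense-mediated decay (1.33% ± 0.127), and Rif1, a regulator of replication timing (1.57% ± 0.135; SD, n = 3 for each).

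Centrosome, mitosis and nuclear pore genes had 3922 members in 21 of 28 genes at 1.38% ± 0.0810 and 0 candidates (88 cytosines, or 2.24% against 2.37% of all members, at an unadjusted p below 0.05 in the combined exact binomial test, 0 with a beta-binomial background). Numa1 was the 1 of 16 transcripts called. The proliferation marker Mki67 had 1.47% ± 0.0695, and the spindle genes Aspm and Cenpf 1.37% ± 0.205 and 1.40% ± 0.0162. Lipid synthesis and membrane traffic genes had 4883 members in 23 of 29 genes at 1.38% ± 0.0498. Their 4 candidates (81.9 per 100000) were the pair in Golgb1, the cytosine of Pi4ka and 1 in Acaca, the acetyl-CoA carboxylase of fatty acid synthesis (11.1% ± 3.62 at position 6233, named after its values were seen). Besides Fasn, the calcium channel gene Itpr3 had 1.44% ± 0.0563 and Wdfy3, an autophagy scaffold, 1.29% ± 0.0777 (SD, n = 3 for each). None of its 19 tested transcripts was called by edgeR (2 at an unadjusted p below 0.05), limma or DESeq2. Of the list of DNA methylation and Tet genes, only Tet2 and Tet3 had members, at 1.16% ± 0.324 and 1.24% ± 0.300 (SD, n = 3), and neither entered the transcript test. Over the lists with tested transcripts, median log2 ratios ran from -0.05 to 0.17.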

How the data were processed

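Bisulfite-converted poly(A)+ RNA was measured in 3 samples of 1 group. The submitters' processing notes name BSMAP and the build mm9, while an aligner version, counting step and annotation were not given in the sources used here. Per the file headers, the deposited tables hold the coverage (whole read counts) and the unconverted fraction of cytosines in RefSeq mRNAs. The product of both was whole within 1e-06 at 100% of entries and gave the unconverted read count. The lowest listed coverage is 3. Where a gene has several listed transcripts (55 of the 904), reads may be split among them. Gene names came by accession without version from an annotation of GRCm38.p6, used for names only.

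The background of the binomial test was each library's unconverted share over all listed cytosines (1.53%, 1.45% and 1.41%). Reads are treated as independent, although PCR copies carry no molecular identifiers, so intervals and limits cover counting error only. The transcript test used edgeR 4.0.16, with DESeq2 1.42.0 and limma 3.58.1 as alternatives (limma on log2 of unconverted reads plus 0.5 over coverage plus 1), in R 4.3.3; other steps used Python 3.11.15 and scipy 1.17.1. Both tests were also run on simulated counts drawn with counting error only. Those runs cannot show how the tests behave with spread beyond counting error or with reads shared between cytosines. Named were the 20 candidates with the highest share, the 8 transcripts with the most members and the 8 with the most coverage, the 5 reaching furthest, those with the most candidates (6 tied with 2), the 6 higher and 6 lower calls with the largest change (1 of them is not reported here), and the 3 genes with the most members in each list. The 6 higher and 6 lower calls also had to go the same way in all 3 libraries. Any other name was chosen with its values in view. The members and lists were chosen with earlier results of these data known. Alternatives concerned coverage, level, boundary, background, replicates and test.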

Additional observations from a re-analysis of the deposited data

How the results depend on the processing

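The share beyond 5000 stayed between 1.38% and 1.44% over 8 alternatives. The mean difference from the nearer region stayed below 0 over 12, from -0.0340 to -0.00829 percentage points. With transcripts weighted equally it was -0.0179 ± 0.0258 (SD, n = 3), with p = 0.5 in the sign-flip permutation test. In that alternative the libraries did not all go the same way. No paired p under 0.25 is possible with 3 libraries. The 36 candidates became 17 at a coverage minimum of 20 reads, 23 with a beta-binomial background, 3 at a level minimum of 20%, 3 with the highest of the 3 p-values and 56 with the boundary at 4000. Leaving out 1 library gave 29 to 46. The rate difference of 4.93 per 100000 turned to -4.88 at 20 reads and -4.05 with the boundary at 4000, and ran from -8.43 to 8.74 without 1 library. Another boundary takes in other cytosines; for the rest the cause was not tested.

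Of transcripts, 12 were higher and 11 lower. Without 1 library it was 1 to 3 and 2 to 8, without the replicate block 2 and 1, with limma 0 and 0, with DESeq2 0 and 1, and with at least 50 cytosines in each region 5 and 5. It was 27 and 40 with the boundary at 4000, 5 and 7 at 6000, 4 and 5 against the positions after 2500, and 15 and 17 at a coverage minimum of 20 reads. The log2 ratio of Urb2 turned to -0.0166 with the boundary at 4000, and that of Gsk3b to -0.51 with the boundary at 6000. Of the 147 other values of the 11 named transcripts, 63 stayed called, 82 kept only the direction and 2 turned. Of the 124 of the 20 named cytosines, 76 stayed called.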

Other observations

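Cytosines with few cytosines around them had a higher unconverted share, beyond position 5000 as well as before it. Members with at most 2 other listed cytosines within 10 nt had an unconverted share of 1.53% ± 0.0678, those with 3 to 4 had 1.46% ± 0.0531, those with 5 to 6 had 1.37% ± 0.0567, and those with 7 to 9 had 1.31% ± 0.0563 (SD, n = 3). Replicate 1 alone gave 1.61%, 1.52%, 1.43% and 1.37% in the same order. In the nearer region the values were 1.58%, 1.47%, 1.39% and 1.33%. The mean number of such neighbours was 4.88 beyond 5000 and 4.92 in the nearer region, and the next base was a listed cytosine at 26.0% of the cytosines of both regions. Within strata of neighbours, a comparison added after seeing the data, the difference between the regions was -0.0219 ± 0.00735 percentage points (SD, n = 3).

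Of the 36 candidates, 9 (25%) touched another listed cytosine, against 45.7% of all members. The sequence itself is not used here, but the spacing of listed cytosines can be set beside motifs known for the enzymes. The NSUN2 motif CNGGG leaves no cytosine at the last 3 of its bases, as at 14 candidates (38.9%) and 45.5% of members. The NSUN6 motif CTCCA has cytosines at 2 and 3 nt after its first base and none beside it or at 4 nt, as at 2 candidates and 3.36% of members. Many other sequences share these spacings, so neither count shows the motif. Members within 500 nt of the last listed cytosine of their transcript had a share of 1.39% ± 0.0398, and those at least 5000 nt from it 1.40% ± 0.0586 (SD, n = 3).

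Across members, Pearson's r of the unconverted share between libraries was 0.0676 to 0.0731 over 112840 cytosines, and 0.206 to 0.214 over the 23775 to 25100 read at least 50 times in both libraries. This is a description over cytosines that share reads, not over replicates.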
